A study of Mus musculus with 157 samples.

Results

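The 200 mouse transcripts described here were those with the least newly made RNA in 6 blood cell types labelled with 4-thiouridine (4sU). A gene entered the ranking when its T-to-C value was above 0 in all 12 labelled libraries and its mean input value over the same 6 types was at least 100. Each library was divided by its median, the 12 scaled values were averaged, and the lowest 200 were taken from 6567 ranked genes, after symbols of ribosomal, histone and some mitochondrial protein families and of numbered gene models had been set aside (27 of them ranked before the last member). The deposited table of new RNA holds 17824 genes, of which 9651 were above 0 in every library. The new RNA values chose these transcripts, so their low level is a description, with no test. The order near the limit was close: Eef1b2, Exosc5 and Eif2d, just inside, had scaled means of 0.525, 0.526 and 0.529, and Ercc1, Acyp1 and Ccdc107, just outside, had 0.530, 0.530 and 0.533.

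The study followed N6-methyladenosine (m6A) on RNA through mouse blood formation. Wild-type cells of 16 types each gave 2 input libraries and 2 libraries made from RNA pulled down by an anti-m6A antibody (IP). A second set held cells labelled Mettl3 -/- and wild type in 7 types (MkP, MEP, GMP, CMP, MPP, ST.HSC and LT.HSC), with 2 input and 2 IP libraries per genotype and type, and a further set held 2 libraries of LT.HSC labelled Igf2bp2 -/- and 2 labelled wild type. New RNA was measured in all of these types but MkP after 3 h with 4sU, which the labels give at 100 mM, in 2 libraries per type. For the chase, LT.HSC and MkP were labelled for 24 h with 10 uM 4sU, washed, and moved to 10 mM uridine for 0.5 to 24 h, and the authors' averages per time point were used. The labels list 2 libraries per chase time for LT.HSC and 1 for MkP, so a value called an average rests on a single library in MkP. Strain, age, the deleted part of each gene and the way of deletion are not stated in the labels. The labels do not say that replicates came from separate mice, so each p-value measures the spread between the deposited libraries alone.

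4sU enters RNA while it is being transcribed, and chemical treatment makes the marked uridines read as C, so the T-to-C value rises with the part of a transcript that was made during labelling. A transcript with little T-to-C signal after a short pulse is mostly older RNA, as for an mRNA that is made and lost slowly. Mettl3 is the catalytic subunit of the main mRNA m6A methyltransferase, m6A is known for promoting the decay of many mRNAs, and Igf2bp2 is an RNA-binding protein that recognises m6A. In bone marrow, granulocyte-monocyte progenitors (GMP) make the primary granule proteins myeloperoxidase (Mpo), neutrophil elastase (Elane) and proteinase 3 (Prtn3) that mature neutrophils carry.

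The bases upstream of 4 myeloid members are shown because Elane, Prtn3 and Mpo had their highest input in the same cell type and Lyz2 in another, and those of Park7 as a member with input RNA in every type. Each line gives the 250 bases before the RefSeq start in GRCm38.p6, on the gene's strand. Capitals mark the match to AGGAAGT (or ACTTCCT, the same letters on the other strand, in Lyz2), an ETS-type site as bound by PU.1, a regulator of myeloid genes, to TATAA, and in Park7 to GGGCGG, the GC box.

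Elane (chr10:79886062-79886311, plus strand): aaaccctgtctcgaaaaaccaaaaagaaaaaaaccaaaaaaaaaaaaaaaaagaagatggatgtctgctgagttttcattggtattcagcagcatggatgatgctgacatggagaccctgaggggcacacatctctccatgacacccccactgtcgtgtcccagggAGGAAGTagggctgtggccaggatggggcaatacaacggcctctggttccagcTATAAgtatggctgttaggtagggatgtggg
Prtn3 (chr10:79879417-79879666, plus strand): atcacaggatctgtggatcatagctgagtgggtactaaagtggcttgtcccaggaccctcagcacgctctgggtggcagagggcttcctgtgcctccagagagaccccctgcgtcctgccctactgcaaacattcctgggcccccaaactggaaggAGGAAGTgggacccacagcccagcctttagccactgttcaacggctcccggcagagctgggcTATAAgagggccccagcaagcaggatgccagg
Mpo (chr11:87793534-87793783, plus strand): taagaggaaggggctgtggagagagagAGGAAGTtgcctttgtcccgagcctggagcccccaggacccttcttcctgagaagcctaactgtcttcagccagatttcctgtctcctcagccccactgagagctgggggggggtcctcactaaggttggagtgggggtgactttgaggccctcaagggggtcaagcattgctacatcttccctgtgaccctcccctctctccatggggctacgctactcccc
Lyz2 (chr10:117282273-117282522, minus strand): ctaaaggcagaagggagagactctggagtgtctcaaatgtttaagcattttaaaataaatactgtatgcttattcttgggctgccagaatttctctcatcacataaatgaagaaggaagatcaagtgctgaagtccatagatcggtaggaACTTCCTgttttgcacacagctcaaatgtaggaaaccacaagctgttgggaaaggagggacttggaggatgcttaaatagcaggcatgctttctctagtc
Park7 (chr4:150909922-150910171, minus strand): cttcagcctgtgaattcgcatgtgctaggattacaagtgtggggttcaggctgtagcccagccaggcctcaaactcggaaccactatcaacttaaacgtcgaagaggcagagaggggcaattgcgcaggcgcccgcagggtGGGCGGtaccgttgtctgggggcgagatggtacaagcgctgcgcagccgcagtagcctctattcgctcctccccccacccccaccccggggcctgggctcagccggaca

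Elane and Prtn3, neighbours on chromosome 10, each held AGGAAGT followed by TATAA. In Elane these lay at -84 to -78 and -31 to -27 from the start, and in Prtn3 at -94 to -88 and -32 to -28. The ETS letters lay at -223 to -217 in Mpo and on the other strand at -100 to -94 in Lyz2. The motifs were chosen after these sequences were seen, and both strands were searched. AGGAAGT was in 13 of the 169 members with a promoter in the table (7.69%), in 7.49% of ranked genes and in 7.80% of all promoters of this length. TATAA was in 22 of the 169 members, 10.8% of ranked genes and 23.5% of all, and GGGCGG in 56.2%, 62.3% and 32.9%.

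Before the values, 3 labelled libraries stood apart: GMP replicate 2, LT.HSC replicate 2 and MEP replicate 2 had the lowest library medians, and 133 of the 200 transcripts stayed among the lowest 200 without them. Over the 12 libraries the median over the 200 transcripts lay between 0.0321% and 0.289%, against 0.401% to 1.93% for the ranked genes. In each library 198 to 200 of them were below the ranked median. The order among the 200 was poorly repeatable. Across their genes the correlation between the 2 replicates of a type ranged from -0.05 to 0.65, with a median of 0.29 over the 6 types.

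Elane had the lowest scaled mean, 0.0418. Its T-to-C value was 0.0142% and 0.0661% in LT.HSC, 0.0376% and 0.0242% in ST.HSC, 0.00548% and 0.00993% in MPP, 0.00573% and 0.00758% in CMP, 0.00866% and 0.00144% in GMP, and 0.00591% and 0.0135% in MEP. LT.HSC and ST.HSC held the 4 highest values and GMP replicate 2 the lowest. Mpo, whose enzyme makes hypochlorous acid in neutrophil granules, read 0.0327% and 0.00549% in LT.HSC, 0.0149% and 0.103% in ST.HSC, 0.0203% and 0.0262% in MPP, 0.0113% and 0.0261% in CMP, 0.0351% and 0.00772% in GMP, and 0.0782% and 0.0106% in MEP. In LT.HSC, ST.HSC and MEP the 2 replicates differed over 5-fold. Igfbp4, a secreted binder of insulin-like growth factors, had the narrower range of 0.0123% to 0.0578% with a median of 0.0361%. Fuz, a planar polarity protein of the cilium, had a median of 0.0181%, and Gcdh, a mitochondrial enzyme of lysine breakdown, one of 0.0365%.

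**Figure D1:**
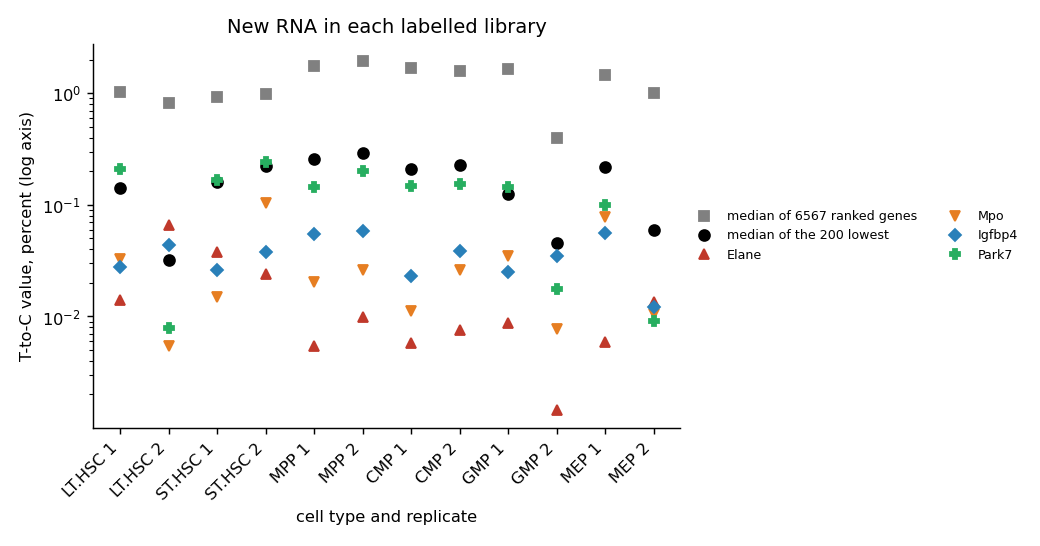
T-to-C value in percent (log axis) in each of the 12 labelled libraries for Elane, Mpo, Igfbp4 and Park7, with the median over the 200 transcripts (black circles) and over the 6567 ranked genes (grey squares). The black circles lie below the grey squares in every library, and are lowest in LT.HSC 2, GMP 2 and MEP 2.

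Of the lowest 15, the others were Mettl26, Ift27, Apoe, Vmac, Slc24a5, Tmem106c, Ydjc, Galns, Loxl2 and Rfxank. Apoe, the lipoprotein of cholesterol transport, ranged from 0.00142% in LT.HSC replicate 2 to 0.608% in MPP replicate 2, so its place rests on low values in most libraries and not in all. Prtn3 was steadier, from 0.0602% to 0.175%. Irf7, a transcription factor of the interferon response, went from 0.00698% to 1.91%, and its highest library was CMP replicate 1. Differences in new RNA between types rest on the same values that chose the members, so no test of them is given.

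By function, 122 of the 200 could be placed in 11 role groups, drawn up after the names were known, and 78 were left without one. The largest were cytosolic metabolism and redox (20), mitochondrial enzymes and carriers (18), DNA replication, repair and chromosomes (15), protein folding and secretion (14) and the lysosome (12). The 21 gene lists were also chosen with earlier results of these data known. Among them the myeloid granule list, with 8 of its 20 genes ranked, had the largest share. Of those 8, 5 were members, Elane, Mpo, Prtn3, Lyz2 (lysozyme) and Nkg7, against 3.05% of all ranked genes. Redox enzymes gave 6 of 25, among them Park7, which guards against oxidative stress, the peroxide-reducing Prdx2 and Prdx4, and the glutathione transferase Gstp1. Chaperones gave 4 of 31, P4hb, Pdia4, Ppib and Fkbp4, and translation factors 4 of 39, Eef1a1, Eef1b2, Eif3f and Rack1. Mitochondrial metabolism gave Ech1, Idh2 and Acaa2 of 29, the lysosome list Npc2, Psap and Ctsd of 32, and glycolysis Tpi1 and Aldoa of 18. No member came from the spliceosome, hnRNP, tRNA synthetase, class I antigen presentation, short-lived regulator or chromatin regulator lists. Of the 23 ranked short-lived regulators, 7 were among the 200 genes with the most new RNA. In all, 38 members were in a list and 162 in none.

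Among the granule genes the median T-to-C value was 0.0232% for Mpo, 0.0792% for Prtn3 and 0.109% for Lyz2. Park7 had a median of 0.145% (range 0.00796% to 0.243%), Prdx2 one of 0.160% (0.0940% to 0.435%) and Eef1a1, the elongation factor that delivers tRNA to the ribosome, one of 0.227% (0.0765% to 0.326%). The median of the translation group was 0.251%, the highest of the 11 groups, and that of the granule and leukocyte group 0.108%, the lowest.

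The 200 genes were short. Their median gene length was 8.77 kb against 24.8 kb for the ranked genes and 18.5 kb for the 200 with the most new RNA, and 106 (53%) were under 10 kb against 20.8%. The 200 genes ranked next were also short, at 11.5 kb. Another coding gene overlapped 78 members (39%) against 21.9% of ranked genes; without strand information, reads from overlapping genes could be assigned to either. They also had many reads: with the ranked genes split by input value into 4 equal bands, 108 members were in the highest band, where they made up 6.58% of the genes, and 20 in the lowest, where they made up 1.22%. Input values are not per length, so these bands order read depth and not RNA molecules. Whether gene length or depth plays a part in the low T-to-C values was not tested.

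Input RNA differed between the 16 cell types for 198 of the 200 (limma F test on log2(value + 1), Benjamini-Hochberg), with a background of 92.6% of genes. The 8 with the smallest p were Sdsl, Alox5ap, Cd34, Prtn3, Tyrobp, Vsir, Mpo and Ube2l6. GMP was the type with the highest mean for 41 members (20.5% against 6.87% of ranked genes), Monocyte for 33 (16.5% against 11.3%), MkP for 26 (13% against 10.1%) and MEP for 25 (12.5% against 9.94%). Erythroid was highest for 26 (13%), below its 19.1% of ranked genes. The members together took 22.0% and 16.6% of the input reads of the 2 GMP libraries and 16.6% and 17.6% of those of Monocyte, but 4.07% and 3.96% in LT.HSC and 1.93% and 1.72% in B cells. Mpo alone took 11.7% and 8.13% of the GMP reads and Elane 5.14% and 3.55%. Without Mpo, Elane, Prtn3 and Lyz2 the members took 4.38% and 4.48% of GMP reads and 1.80% and 1.74% of Monocyte reads.

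Elane input values were 241 and 350 in LT.HSC, 287 and 2620 in ST.HSC, 15757 and 9331 in MPP, 41288 and 20081 in CMP, 1286470 and 493730 in GMP, and 190 and 118 in MEP. They were 135930 and 205555 in MkP, 286440 and 309219 in Monocyte, 42038 and 45909 in Neutrophil and 108 and 105 in DC. Both GMP libraries were above every other library, and DC and MEP were the lowest types. Mpo was also highest in GMP, with 2936770 and 1131140, followed by MkP with 573183 and 442750, against 312 and 225 in MEP and 142 and 194 in DC. Lyz2 had a different peak, 11646000 and 17336600 in Monocyte and 1365790 and 1446560 in Neutrophil, with 65.3 and 44.1 in MEP. Igfbp4 spanned less, from 5818 and 5274 in GMP to 224 and 184 in Erythroid.

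**Figure D2:**
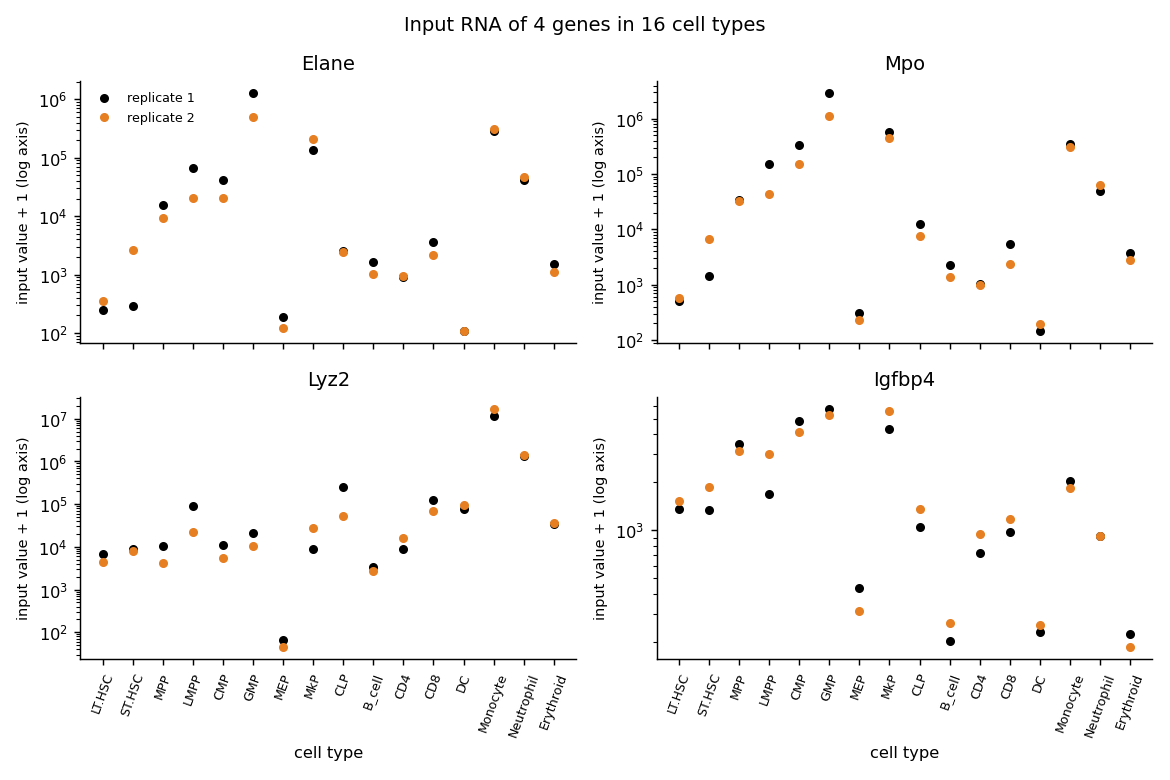
Deposited normalised input value + 1 (log axis) of Elane, Mpo, Lyz2 and Igfbp4 in 16 cell types, with 1 point per library. Elane and Mpo are highest in GMP, Lyz2 in Monocyte, and MEP and DC are low for Elane and Mpo.

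The summed input of 8 fixed GMP and neutrophil markers, Mpo and Elane among them, was 4617850 and 1733340 in GMP and 15094500 and 20104000 in Monocyte. It was 1584650 and 1751860 in Neutrophil, below both Monocyte libraries, 755010 and 742769 in MkP, 632 and 411 in MEP and 22181 and 20843 in Erythroid. The 5 megakaryocyte markers were highest in MkP, at 26025 and 88620. In bulk libraries fewer cells of a type and less RNA per cell cannot be told apart, and the part of other cells in the MkP and Erythroid values was not tested.

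With LT.HSC set against the average of the other 5 labelled types, 79 of the 200 transcripts were lower (39.5%, background 15.1% of all genes and 26.3% of ranked genes) and 17 were higher (8.50%, background 21.7% and 16.6%). Their median log2 difference was -0.54, against 0.23 over all genes and -0.16 over ranked genes. LT.HSC values did not overlap those of the other 10 libraries in 50 of the 200, 48 of them called. The share over all genes was not counted, so nothing is read from this count. Mpo (log2 difference -5.59 ± 0.49 SE, limma adjusted p = 3.9e-08) and Elane (-4.81 ± 0.53, 7.9e-07) were lower, with 190 and 118 for Elane in MEP below both LT.HSC values. Secretory and mitochondrial members also fell. Ddost, a subunit of the enzyme that attaches N-linked glycans, was 3809 and 3028 in LT.HSC and 5440 to 61467 in the other types, with no overlap (-1.82 ± 0.34, limma adjusted p = 0.00036). Idh2, which makes NADPH in mitochondria, was 2462 and 1790 in LT.HSC and 2599 to 25174 in the other types, with no overlap (-1.69 ± 0.28, adjusted p = 8.7e-05). Tmed3 (-1.64), Scamp3 (-1.62) and Acaa2 (-1.57) fell too.

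By role, protein folding and secretion had 0 of 14 higher and 10 lower, DNA replication and repair 1 of 15 higher and 11 lower, cytosolic metabolism 0 of 20 higher and 11 lower, and the mitochondrial group 0 of 18 higher and 8 lower. None of the 7 interferon and antigen processing members was called. In the wider lists, which hold members too, 22 of 32 chaperones, 17 of 30 redox enzymes and 22 of 39 translation factors were lower in LT.HSC, and 0, 0 and 2 were higher. Lists with few members fell as well: 32 of 36 proteasome, 31 of 40 respiratory chain and 22 of 39 spliceosome genes were lower and 0 higher. These 3 lists hold 2, 1 and 0 members, so the fall was not particular to the members. LT.HSC input entered the filter of a mean of at least 100, so a gene high mainly there could pass through it. The largest rise was that of Tie1, a receptor of the angiopoietin pathway, at 660 and 1286 in LT.HSC and 3.68 to 295 elsewhere (4.01). Tie1 may have passed the filter through its LT.HSC values, so its rise is described only. Hmgn3, a nucleosome binder, rose by 2.47, Slc24a5 by 2.11, Tmcc1 by 1.63 and Cerkl by 1.15. Lyz2 was 6634 and 4495 in LT.HSC and was not called (adjusted p = 0.30), nor was Prtn3 (adjusted p = 0.066) or Apoe (0.064). Without LT.HSC replicate 1 the count of higher members was 8, and without replicate 2 it was 11 with 36 lower.

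Erythroid cells against MEP, their progenitor, had 74 members lower (37%, background 13.1% of all genes and 21.0% of ranked genes) and 38 higher (19%, background 20.6% and 23.1%). MEP is among the 6 types whose input entered the choice of members and Erythroid is not, so that choice favours a fall. The ranked genes passed the same input filter. With 2 libraries on each side, the groups did not overlap in 172 of the 200 members, called or not, these 112 among them. The share over all genes was not counted. The median was -0.54, against -0.01 over ranked genes and 0.17 over all genes. Under TMM scaling the median over all genes was 0.01, and the counts were 86 and 34. Prdx2, the abundant peroxiredoxin of red cells, was 293565 and 270685 in Erythroid and 18545 and 24202 in MEP (3.73 ± 0.33, limma adjusted p = 7.1e-09). Ube2l6, a ubiquitin-like conjugating enzyme of the ISG15 pathway, rose by 6.33, and Irf7 rose by 4.80. Metabolism fell more often than it rose, 14 of 20 against 2, led by G6pc3 (-3.22), and protein folding was lower in 8 of 14. Ydjc (-4.68), the lysosomal glucosidase Gaa (-3.17), Abhd14a (-3.13) and Ramp1 (-2.94) fell. The granule and leukocyte members were higher in 6 of 7, Lyz2 by 9.34, Tyrobp by 4.79, Mpo by 3.61, Elane by 3.11 and Prtn3 by 1.71. All 8 GMP and neutrophil, 4 of 4 monocyte and 5 of 5 B cell markers were higher in Erythroid too, and their part in these values was not tested.

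Neutrophils against GMP had 98 members lower (49%, background 18.1% of all genes and 26.8% of ranked genes). Another 33 were higher (16.5%, background 20.5% and 24.0%). The members' median was -0.92, against -0.11 over ranked genes and 0.00 over all genes. GMP is among the labelled types whose input entered the choice of members and Neutrophil is not, so that choice favours a fall. The ranked genes passed the same input filter. Granule genes split: Mpo (-5.03), Nkg7 (-4.64), Elane (-4.18) and Prtn3 (-3.71) fell, while Lyz2 rose by 6.55. Mpo read 2936770 and 1131140 in GMP and 48588 and 64410 in Neutrophil. Irf7, at 22.7 and 49.1 in GMP and 3485 and 3095 in Neutrophil, rose by 6.58 ± 0.48 (limma adjusted p = 3.6e-10). Tmcc1, Vsir (an immune checkpoint receptor) and Taf10 (a TFIID subunit) rose by 4.95, 4.26 and 3.26. Cd34 (-4.96), a surface marker of progenitors, and Sdsl (-5.33) fell. Metabolism fell in 15 of 20 and rose in 0, DNA replication and repair fell in 9 of 15, and the translation group fell in 5 of 7. The lysosome group divided, with 5 of 12 higher and 4 lower, and of its members Psap rose by 2.21 and Ctsd by 1.25. Markers of other cells were higher in Neutrophil too, 5 of 7 of T cells, 3 of 5 of B cells, 3 of 5 of dendritic cells and 4 of 7 erythroid ones, and their part in these values was not tested.

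The m6A level is given as log2 IP minus log2 input, averaged over the 16 types. The tables were scaled separately, so a value of 0 has no fixed meaning and the level is described beside that of other genes. The 200 transcripts had a median of -0.21 (quartiles -0.76 and 0.58), against 0.64 for ranked genes, 0.77 for all genes tested and 0.73 for the 200 with the most new RNA. In all, 109 (54.5%) were in the lowest 25% of all genes against 29.0% of ranked genes. Their median was under that of the ranked genes in each of the 16 types, by 0.47 in CD4 to 1.09 in LMPP.

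**Figure D3:**
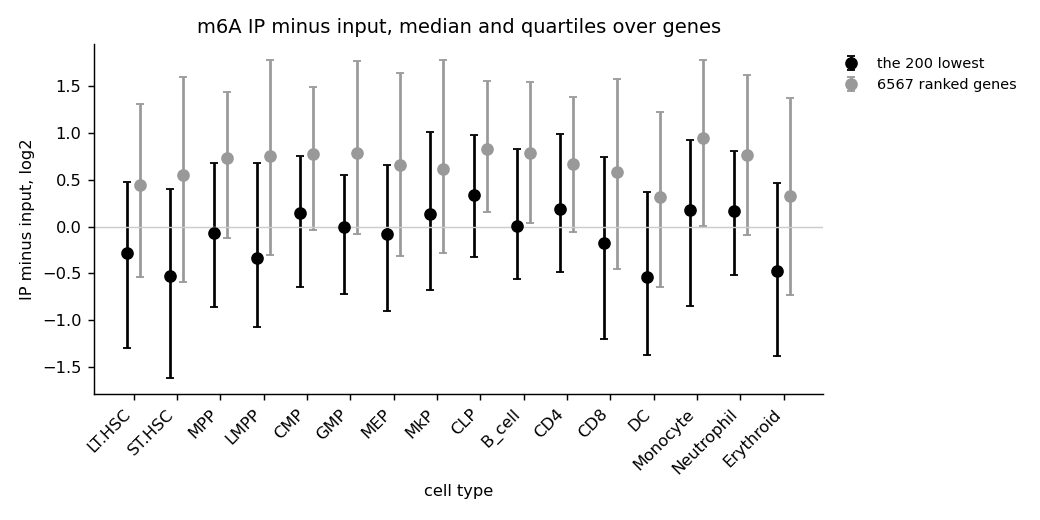
Median IP minus input (log2) with quartiles over genes in 16 cell types, for the 200 transcripts (black) and the 6567 ranked genes (grey). The black median lies below the grey one in every type, and the quartile ranges overlap.

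Gene length and read depth moved with this level. Among genes over 50 kb the 14 members had a median of 1.27 and the other ranked genes 1.28. From 10 to 50 kb the values were -0.21 and 0.58, and under 10 kb -0.29 and -0.01. In the lowest input band the 20 members were at 1.36 and the others at 1.40, in the next at -0.03 and 0.96, in the one above at -0.28 and 0.34, and in the highest at -0.32 and -0.19. The difference was thus smallest where genes were longest or least read. It was also small in the highest input band, which held 108 members, and was smaller under 10 kb than from 10 to 50 kb. It did not change in 1 direction with length or depth, and their part was not tested.

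Translation was the role group with the highest level, a median of 1.33 with 6 of 7 members above 0, led by Eef1b2 (2.20) and Eif3f (2.17). The mitochondrial group had -0.45, protein folding -0.40 and cytosolic metabolism -0.39. The highest single members were Taf10 (2.57), Tsc2 (2.44), an inhibitor of mTORC1 signalling, Tmcc1 (2.28) and Cad (2.27), the enzyme that starts pyrimidine synthesis. The lowest were Spr (-2.66), the last enzyme of tetrahydrobiopterin synthesis, Fuz (-2.37), Tspan31 (-1.97), BC147527 (-1.85) and the chaperone cofactor Sdf2l1 (-1.74). Mpo had -1.44, Apoe -0.91, Lyz2 -0.74, Elane -0.35, Prtn3 0.27 and Igfbp4 0.45, so the granule genes did not share 1 level.

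IP minus input differed between types for 78 of the 200 (39%, background 26.0% of all genes and 35.7% of ranked genes, limma F test over both tables). Without CD8 IP replicate 1 the count was 118. Aes, Lars2, Rack1, Aldh2, Abhd14a, Lrwd1, BC147527 and Irf7 had the smallest p. In LT.HSC against the other 5 labelled types 15 members were lower (7.50%, background 8.03% of all genes and 9.12% of ranked genes) and 2 higher (1.00%, background 1.32% and 1.78%), shares near the background. BC147527 (-3.47 ± 0.61, limma adjusted p = 0.00030), Dpysl2 (-3.23), the RNA polymerase III factor Gtf3a (-2.87), Stard5 (-1.96) and Kbtbd4 (-1.94) were lower. Mpo was 2.49 higher (adjusted p = 0.0092) with groups that overlapped. These counts moved with single libraries: without LT.HSC IP replicate 2 there were 28 lower and 16 higher members. Without LT.HSC input replicate 1 or 2 there were 5 or 4 lower, and without ST.HSC IP replicate 2 there were 5 higher.

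In the chase the members stood above the ranked genes. At 0.5 h the median T-to-C value of listed members was 0.134% in LT.HSC against 0.0361% for ranked genes, and 0.0956% in MkP against 0.0707%. The 200 genes with the most new RNA had 0.0233% and 0.0513% at that time. At 3 h it was 0.0386% against 0.0225% in LT.HSC and 0.0644% against 0.0418% in MkP, and at 24 h 0.0727% against 0.0526% and 0.0156% against 0.0151%. At 24 h the 200 genes with the most new RNA were at 0.102% in LT.HSC and 0.0160% in MkP, and all genes of the tables at 0.0919% and 0.0158%, above the members in both types. The members' median was above that of ranked genes at each of the 7 times in both types, after 24 h of labelling, while it was below in all 12 libraries after 3 h of labelling. The labelling time, the concentration, the cells and the genes listed differ between these tables, so their values are set side by side only.

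**Figure D4:**
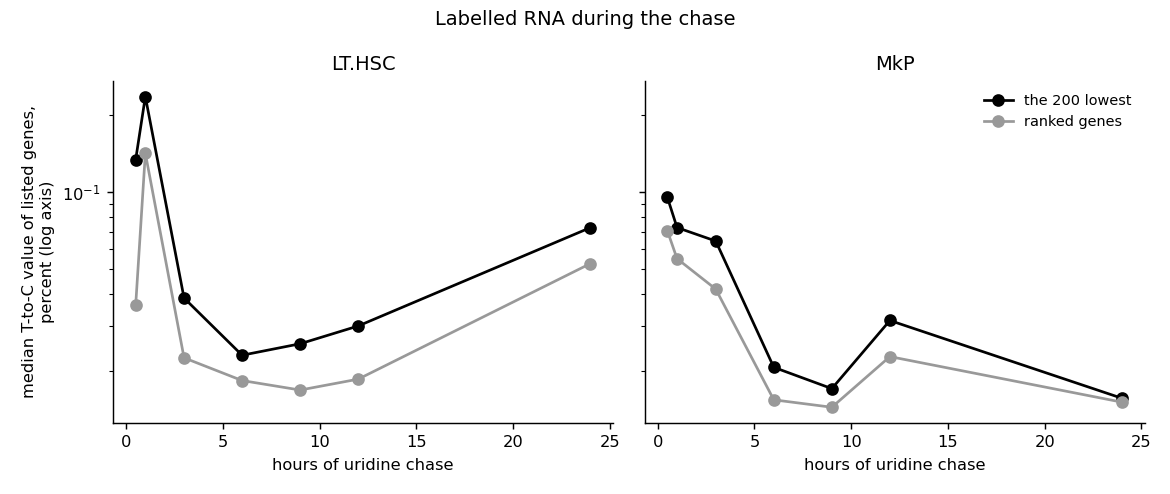
Median T-to-C value in percent (log axis) of the genes listed at each of 7 chase times in LT.HSC (left) and MkP (right), for the 200 transcripts (black) and ranked genes (grey), from the authors' averages. Black lies above grey at every time, and neither series falls at every step.

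A gene's value at 24 h as a percent of its 0.5 h value could be formed for 35 of the 182 members listed in LT.HSC and for 100 of the 194 in MkP. The median was 34.5% in LT.HSC against 79.2% for ranked genes, and 16.9% in MkP against 19.9%. In LT.HSC it was 16.1% when the higher of the 0.5 h and 1 h values was the start, against 43.2% for ranked genes. Single genes jumped between times. Rack1, a ribosomal scaffold protein, read 0.252%, 0.774%, 0.426%, 0.172%, 1.89%, 0.144% and 0.0157% over the 7 times in LT.HSC, leaving 6.22%, and it had 479% of its start in MkP. Its largest steps between neighbouring times exceeded the difference between the medians of the sets.

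Stmn1, a microtubule-destabilising protein, was low at 24 h in both types, with 3.57% of its start in LT.HSC and 0.364% in MkP. In LT.HSC Prdx2 had 2.47%, Nsun5 3.21% and G6pc3 3.33%, and in MkP Ech1 had 0.999% and Lyz2 1.34%. Lyz2 in MkP read 0.898%, 0.878%, 0.630%, 0.326%, 0.784%, 0.0169% and 0.0120%, with its lowest values at the last 2 times. The highest were Rbm4b at 2942%, Cog1 at 2547% and Tmcc1 at 1793% in LT.HSC, and Psmg1 at 6597% and Loxl2 at 4117% in MkP. Eef1a1 had 59.4% in LT.HSC and 10.2% in MkP, and Park7 116% and 3.40%. Elane was listed at 2 of the 7 times in LT.HSC and at 6 in MkP, and had no 24 h value in either. Mpo had 164% and Prtn3 9.33% of the start in MkP. The tables give no replicates, so no error can be set on these values.

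In the Mettl3 set the transcript itself did not separate the genotypes: input values were 274 to 931 with a median of 489 in the libraries labelled Mettl3 -/- and 127 to 5370 with a median of 428 in wild type. The labels do not name the deleted part, so this neither checks nor contradicts the labels. Over 7 types, 22 of the 200 transcripts were higher in the libraries labelled Mettl3 -/- (11%, background 7.24% of all genes and 7.63% of ranked genes) and 3 lower (background 2.89% and 3.7%). The median was 0.20 against -0.06 over all genes. With 1 mean per genotype and replicate number as the unit, 0 were called in either direction, and without LT.HSC and ST.HSC 10 were higher and 1 lower. Without ST.HSC Mettl3 -/- replicate 2 there were 42 higher and 7 lower, and leaving out any other single library gave 0 to 4 lower.

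B3gnt8, a glycosyltransferase that extends N-glycans, led with 2.63 ± 0.30 (limma adjusted p = 1.4e-05). Its input was 217 and 156 in wild type and 1136 and 2798 in the libraries labelled Mettl3 -/- for LT.HSC, 102 and 139 against 3004 and 850 for ST.HSC, and 398 and 147 against 1096 and 3907 for MPP. It was 314 and 308 against 467 and 1829 for CMP, 27.7 and 28.4 against 158 and 334 for MEP, and 135 and 216 against 738 and 1344 for MkP. Both Mettl3 -/- libraries were above both wild-type ones in these 6 types, and in GMP (766 and 600 against 647 and 3936) the groups overlapped. Endog, a mitochondrial nuclease, was listed at 0 in both wild-type LT.HSC libraries and at 44.3 and 97.5 in those labelled Mettl3 -/-, a log2 difference of 6.06. Its mean difference over the 7 types was 1.48 ± 0.40 (limma adjusted p = 0.019), with LT.HSC by far the largest. In the other types it ran from -0.49 in ST.HSC to 2.44 in MPP.

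Apoe rose by 1.13 ± 0.32 (limma adjusted p = 0.026). It read 6645 and 6142 in wild-type LT.HSC against 13298 and 37211, 5455 and 1997 in MPP against 11584 and 41556, and 3471 and 2271 in GMP against 889 and 2982, where the groups overlapped. Tie1, Napsa, Sla2, Lyz2 and Igfbp4 rose by 1.29, 1.37, 1.38, 1.01 and 0.91, and Cerkl (-1.41) and Smpdl3a (-0.65) fell. The pooled values of the 14 libraries per genotype overlapped for all 25 called members, so these genes were chosen by size among them after their values were seen. Tested within each type, 13 members were higher in MEP, where 321 genes were higher and 1 lower, 1 member was higher in LT.HSC, and 0 were called in the other 5 types. In MEP, Tie1 was 16.6 and 14.8 in wild type and 234 and 316 in the libraries labelled Mettl3 -/-. In the test over all 7 types, 8 of 18 genes of the myeloid granule list were higher and 0 lower, against 7.24% and 2.89% of all genes.

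The lowest 2 transcripts for new RNA were not called: Elane had 0.46 (limma adjusted p = 0.67) and Mpo 0.43 (0.63), and both were below 0, at -0.21 and -0.15, without LT.HSC and ST.HSC. Prtn3 had 0.85 (adjusted p = 0.070). Elane libraries of a type differed by more than the genotypes, with 3973 and 153 in wild-type LT.HSC and 1434 and 709 in those labelled Mettl3 -/-. The summed GMP and neutrophil markers had a median of 31763 (range 1367 to 1564230) in wild type and 70497 (2408 to 1130430) in the libraries labelled Mettl3 -/-, and 3 of the 8 were called higher. The part of such cells in the differences was not tested.

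**Figure D5:**
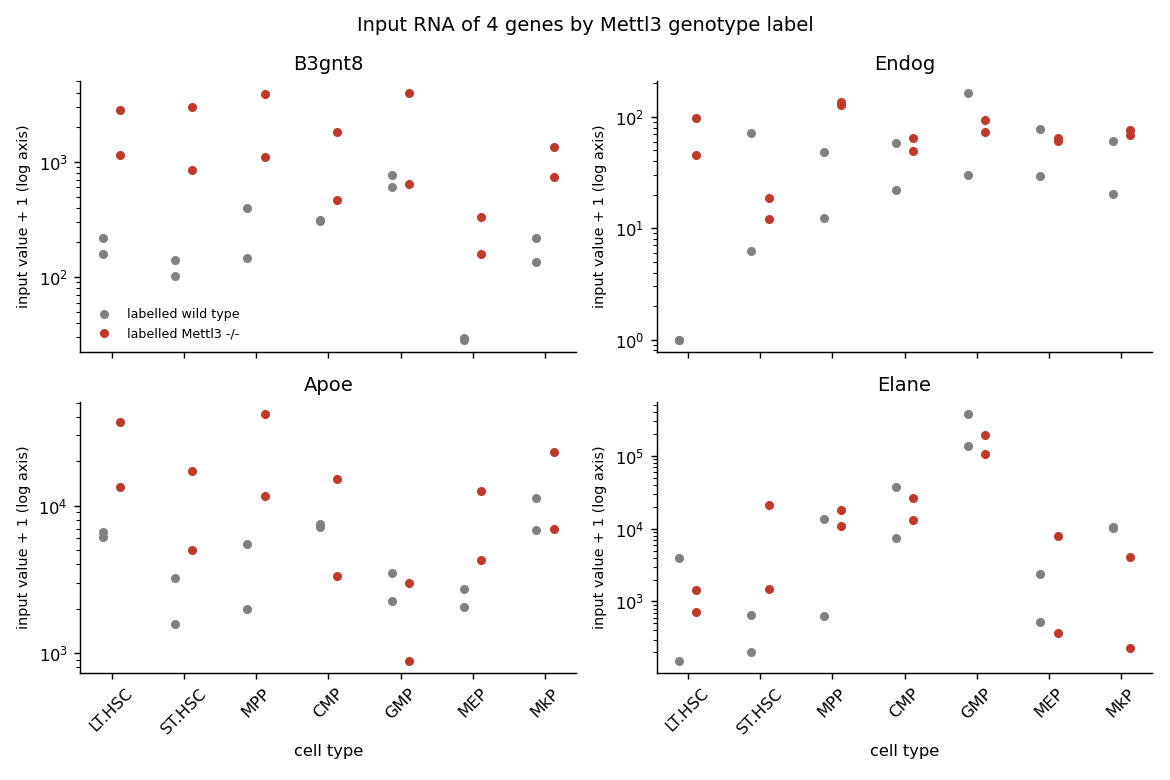
Deposited normalised input value + 1 (log axis) of B3gnt8, Endog, Apoe and Elane in 7 cell types, with wild type in grey and libraries labelled Mettl3 -/- in red, 1 point per library. B3gnt8 is higher in both red points in 6 of the 7 types, and Elane changes sides from type to type.

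IP minus input by Mettl3 label called 0 of the 200 transcripts and 0 of 14271 genes (background 0.0%, limma, Benjamini-Hochberg), and the smallest adjusted p was 0.99. At an unadjusted p under 0.05 the counts were 9 members and 614 genes. The members' median was -0.27 against 0.02 over all genes. In 2 wild-type IP libraries, of LT.HSC and ST.HSC, the top 10 genes took 94.2% and 75.8% of the counts, and a Mettl3 -/- MEP IP library held 819087 reads. Without these 3 libraries the count of called members was again 0.

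In LT.HSC labelled Igf2bp2 -/-, edgeR called 0 of the 199 members tested and 0 of 12221 genes (background 0.0%, quasi-likelihood test, Benjamini-Hochberg), with 13 members and 777 genes at an unadjusted p under 0.05. Igf2bp2 itself had 17.3 and 12.2 CPM (counts scaled to a common library total) in the libraries labelled Igf2bp2 -/- and 6.19 and 48.0 in wild type, so its level did not separate the labels. The members' median log2 difference was 0.53 against 0.00 over all genes. Elane had 3343 and 151 CPM in Igf2bp2 -/- and 46.1 and 17.9 in wild type, Mpo 614 and 172 against 63.0 and 64.5, Prtn3 338 and 106 against 64.2 and 67.2, and Lyz2 1657 and 907 against 345 and 209. The groups did not overlap for these 4, which was so for 95 of the 199 members tested, with 2 libraries on each side. As the share over all genes was not counted, nothing is read from this. The first Igf2bp2 -/- library was the higher one in each of the 4. Their log2 differences of 5.76, 2.62, 1.75 and 2.21 had adjusted p of 0.62, 0.62, 0.69 and 0.62. The 8 GMP and neutrophil markers summed to between 1467 and 8356 CPM in the 2 libraries labelled Igf2bp2 -/- and to between 240 and 513 in the 2 of wild type, and their part in the granule values was not tested. DESeq2 called 6 members higher, among 151 genes called.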

How the data were processed

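The series holds 157 mouse libraries, grouped by the labels. fastp, Trimmomatic, kallisto and GRCm38 are named in the submitters' processing notes, without versions or roles. The deposited input tables hold a signal, counts divided by 1 size factor per library, per the file names in the labels. Its steps gave whole reads, within a tolerance of 0.1, for 100% of values, and edgeR on those reads was an alternative. The IP tables hold estimated counts (kallisto is named in the notes), not rounded or scaled, and the Igf2bp2 table counts, as the authors deposited them. The labelled and chase tables hold the authors' T-to-C value per gene as a fraction, shown here as a percent, with the denominator and background correction not given in the sources used here. Chase values are the authors' averages, and depth behind T-to-C values is unknown. The limma test of new RNA between types is not reported, since the same values chose the members. Library depth was 8225437 to 21530672 reads for atlas input, 10759773 to 24623517 for atlas IP, 3420411 to 20229330 for Mettl3 input, 819087 to 22918683 for Mettl3 IP and 4681219 to 19984167 for Igf2bp2.

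Input was tested with limma 3.58.1 with a trend on log2(value + 1), for genes of at least 10 in at least 2 libraries. IP minus input was tested in 1 limma fit over both tables after TMM scaling within each, and the Igf2bp2 counts with edgeR 4.0.16 (filterByExpr, TMM, quasi-likelihood) in R 4.3.3, with DESeq2 1.42.0 as an alternative. Fold changes on log2(value + pseudocount) understate those of low genes. A call is a Benjamini-Hochberg adjusted p under 0.05 over all genes tested, and the fits were tested on simulated data. The main fits have no replicate block. The members, gene lists and role groups were chosen with earlier results of these data known. Named genes are the 15 lowest, the lowest of each list, in each comparison the 5 most raised and lowered called members of mean at least 50 without overlap, the highest and lowest levels of IP minus input and of the chase, and the granule genes, Igfbp4 and Apoe. Gene names, lengths and promoters came from RefSeq tables of GRCm38.p6. No genome or protein table was used here. Some named genes are not reported here.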

Additional observations from a re-analysis of the deposited data

Results flagged for a closer look

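Elane differed in the direction of its Mettl3 difference between cell types. In ST.HSC the libraries labelled Mettl3 -/- read 20780 and 1458 against 644 and 202 in wild type, a log2 difference of 3.93 ± 1.62 SE (limma adjusted p = 0.39). In MkP they read 230 and 4017 against 10213 and 10561, a log2 difference of -3.43 ± 1.62 (limma adjusted p = 0.52). Neither was called, and they were the highest and lowest of the 7 types. In both types the groups did not overlap, with the opposite order, and the difference between the types was not tested. The 2 libraries labelled Mettl3 -/- differed over 10-fold in each type.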

How the results depend on the processing

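Leaving out each library in turn, the 200 transcripts shared 158 to 193 genes with the list as given, and without the 3 libraries with the lowest medians they shared 133 (this setting, that without LT.HSC and ST.HSC and the crossed pairing were chosen after seeing the data). Without 1 library at a time, the input counts of LT.HSC against 5 types were 8 to 18 higher and 36 to 82 lower, those of IP minus input were 60 to 118 among types (118 without CD8 IP replicate 1) and 1 to 16 higher and 4 to 28 lower in LT.HSC, and those by Mettl3 label 16 to 42 higher and 0 to 7 lower. IP minus input in LT.HSC had 6 higher with DESeq2 size factors. By Mettl3 label, 0 were higher and 0 lower with 1 mean per genotype and number, 10 higher and 1 lower without LT.HSC and ST.HSC (Elane at -0.21 and Mpo at -0.15), and 0 lower with no filter. In Igf2bp2, 4 were higher with no filter and 6 with DESeq2. The numbers share no stated source; same-numbered libraries of 2 groups deviated together with a median correlation of 0.00 in atlas input, 0.01 in Igf2bp2 and 0.16 in Mettl3 input, where 56 of 91 pairs of groups were over 0.1 and the range was -0.11 to 0.49. The replicate block gave 6 lower and 26 higher by Mettl3 label, 1 higher in Igf2bp2 and 19 higher and 79 lower in LT.HSC input; a crossed block gave 0 in Igf2bp2. The chase left 16.1% in LT.HSC from the higher early value (ranked genes 43.2%) and 53.7% in MkP at 12 h, where ranked genes had 41.2%, the opposite order to 24 h. edgeR on whole reads called 7873, 5772, 6490 and 1486 genes in the LT.HSC, Erythroid, Neutrophil and Mettl3 input comparisons, with members 15, 32, 33 and 24 higher and 96, 91, 101 and 4 lower. Scaling by DESeq2 moved the median of all genes for IP minus input in LT.HSC from -0.34 to -0.19 and by Mettl3 label from 0.02 to 0.13. Of the named genes, all 14 in Erythroid, all 11 in Neutrophil and 13 of 16 in LT.HSC input kept direction and call in every setting run, against 2 of 8 for IP minus input in LT.HSC, 1 of 4 in Igf2bp2 and 0 of 14 by Mettl3 label. The cause of these changes was not tested. Shallow T-to-C values of unknown depth limit the order within the 200.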
